A study of Mus musculus with 11 samples.

Results

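Lipolysis of triacylglycerol and cholesteryl esters was followed in the adrenal through 8 genes, Pnpla2, Abhd5, G0s2, Lipe, Mgll, Ces1d, Plin2 and Plin3. Every array probe that the platform annotation assigns to one of these symbols was taken, which gave 11 of 25697 probes and 8 of 16593 annotated genes. Lipe has 2 probes, Mgll has 3 and the other genes have 1 each. All 11 were among the 13341 probes kept, those with a detection p under 0.05 in at least 5 of the 10 mice. The second Lipe probe (ILMN_3111326) passed in 5 mINDY-KO mice and 1 WT mouse, so that its inclusion depended on the genotype in which it was brighter.

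mINDY-KO mice lack mINDY, the plasma membrane citrate transporter encoded by Slc13a5, and the arrays were run to compare gene expression in adrenals of 5 mINDY-KO mice with that of 5 WT littermates. The mINDY-KO mice were homozygous for an Slc13a5 allele deleted through an Hprt1-Cre transgene of 129S1 origin, so that the gene is missing from the whole body and not from the adrenal alone. Both groups were males, 12-16 weeks old, bred as littermates after repeated backcrossing to C57B/6J and kept on standard chow, and the sources used here do not say whether WT mice carried the transgene. Total RNA of whole adrenals, which hold cortex, medulla, vessels and any attached fat, was hybridized to 11 Illumina bead arrays, 1 mouse per array except WT replicate 1, whose 2 arrays were averaged and counted once. The supplement counts as many WT samples as there were WT arrays, whereas the labels call 1 of these arrays a repeat of WT replicate 1, and the labels were followed. They name each replicate as a mouse of its own, so the p-values below measure the spread between mice.

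Lipid droplets hold triacylglycerol and cholesteryl esters under a coat of perilipins. Adipose triglyceride lipase (Pnpla2), hormone-sensitive lipase (Lipe) and monoacylglycerol lipase (Mgll) remove the fatty acids of triacylglycerol one after another, and ABHD5 and G0S2 switch the first lipase on and off. In the adrenal cortex the droplets store mainly cholesteryl esters, and hormone-sensitive lipase releases from them the cholesterol that becomes steroid hormone after stimulation by ACTH through cAMP and protein kinase A.

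The windows of 250 bases before the RefSeq transcription start (build GRCm38.p6) are shown for Plin3, the gene with the smallest p-value of the 8, and for Pnpla2 and Abhd5, a lipase and its coactivator of which mINDY-KO replicates 3 and 4 had the highest Pnpla2 and the lowest Abhd5 levels. Capitals mark the GC box GGGCGG on either strand.
Plin3, chr17:56290512-56290761, minus strand: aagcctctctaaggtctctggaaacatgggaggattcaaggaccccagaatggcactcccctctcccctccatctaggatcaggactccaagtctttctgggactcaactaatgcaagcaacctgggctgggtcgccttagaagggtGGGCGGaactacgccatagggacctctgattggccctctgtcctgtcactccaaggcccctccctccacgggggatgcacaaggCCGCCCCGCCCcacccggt
Pnpla2, chr7:141454938-141455187, plus strand: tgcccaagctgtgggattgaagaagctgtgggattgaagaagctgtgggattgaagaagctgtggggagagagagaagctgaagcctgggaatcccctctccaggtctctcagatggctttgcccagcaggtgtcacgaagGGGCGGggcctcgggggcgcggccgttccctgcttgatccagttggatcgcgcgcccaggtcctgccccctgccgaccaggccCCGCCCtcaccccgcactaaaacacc
Abhd5, chr9:122351366-122351615, plus strand: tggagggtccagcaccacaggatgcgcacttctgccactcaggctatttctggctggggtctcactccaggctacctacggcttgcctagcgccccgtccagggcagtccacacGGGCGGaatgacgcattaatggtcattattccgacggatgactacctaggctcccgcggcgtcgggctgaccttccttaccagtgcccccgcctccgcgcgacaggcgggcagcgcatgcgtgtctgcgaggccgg
The Plin3 window holds 3 GC boxes, at 103, 19 and 14 bases before the start, the last pair overlapping by a base. The Pnpla2 window holds 2, at 109 and 26 bases before the start, and the Abhd5 window holds 1, at 136 bases. RefSeq windows were matched for 7 of the 8 genes, 9 windows in all since Lipe and Mgll have 2 each, and Ces1d was not matched. GC boxes were found in 6 of the 9 windows, against 32.7% of all 32851 windows of this length. The E-box CACGTG was found in 2, 1 of Lipe and 1 of Mgll (6.02% of all windows), whereas the cAMP response element TGACGTCA (1.55%) and the NR5A1 half-site CAAGGTCA (1.33%) were found in 0. Both strands were searched, the E-box matches overlap no GC box, and the matches describe letters only.

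Levels are given as log2 units relative to the mean of the array, and differences as mINDY-KO minus WT on the same log2 scale. The median signal was 122 to 238 on mINDY-KO arrays and 150 to 202 on WT arrays, and mINDY-KO replicates 3 and 4 had the lowest, 127 and 122. Probes detected numbered 13310 to 13507 on mINDY-KO arrays and 13260 to 13538 on WT arrays. Slc13a5 itself gave no signal above background on the 11 arrays (detection p 0.0714 to 0.357), so its probe does not check the genotype labels. The paper reports high expression of this gene in WT adrenals by PCR, so the missing array signal does not show that they lack it. Star and Cyp11b1 of the cortex, Th and Dbh of the medulla, Pecam1 of endothelium and C1qa of macrophages were detected in all 10 mice. In bulk RNA, fewer cells of a type and less RNA per cell cannot be told apart.

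None of the 11 lipolysis probes passed limma's test of mINDY-KO against WT mice with Benjamini-Hochberg adjustment over all kept probes, where 0.015% of 13341 probes were called (2 probes). With the brightest probe of each gene, means were higher in mINDY-KO mice for 6 of the 8 genes and lower for Abhd5 and G0s2, while 44.1% of all kept probes had the higher mean in mINDY-KO mice. The median difference over the 8 genes was 0.14, against -0.019 over all 9302 genes with a kept probe. The median size of the difference was 0.15 over the 8 genes and 0.079 over all genes, and the median SD within genotypes was 0.14 in both. An unadjusted p under 0.05 with a higher mean in mINDY-KO mice was found for 2 of the 8 genes, Plin3 and Ces1d (4.29% of all kept probes), and with a lower mean for 0 of the 8 (6.65% of all kept probes). In none of the 11 probes did all 5 mINDY-KO mice lie on one side of all 5 WT mice, which 2.06% of all kept probes did.

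**Figure D1:**
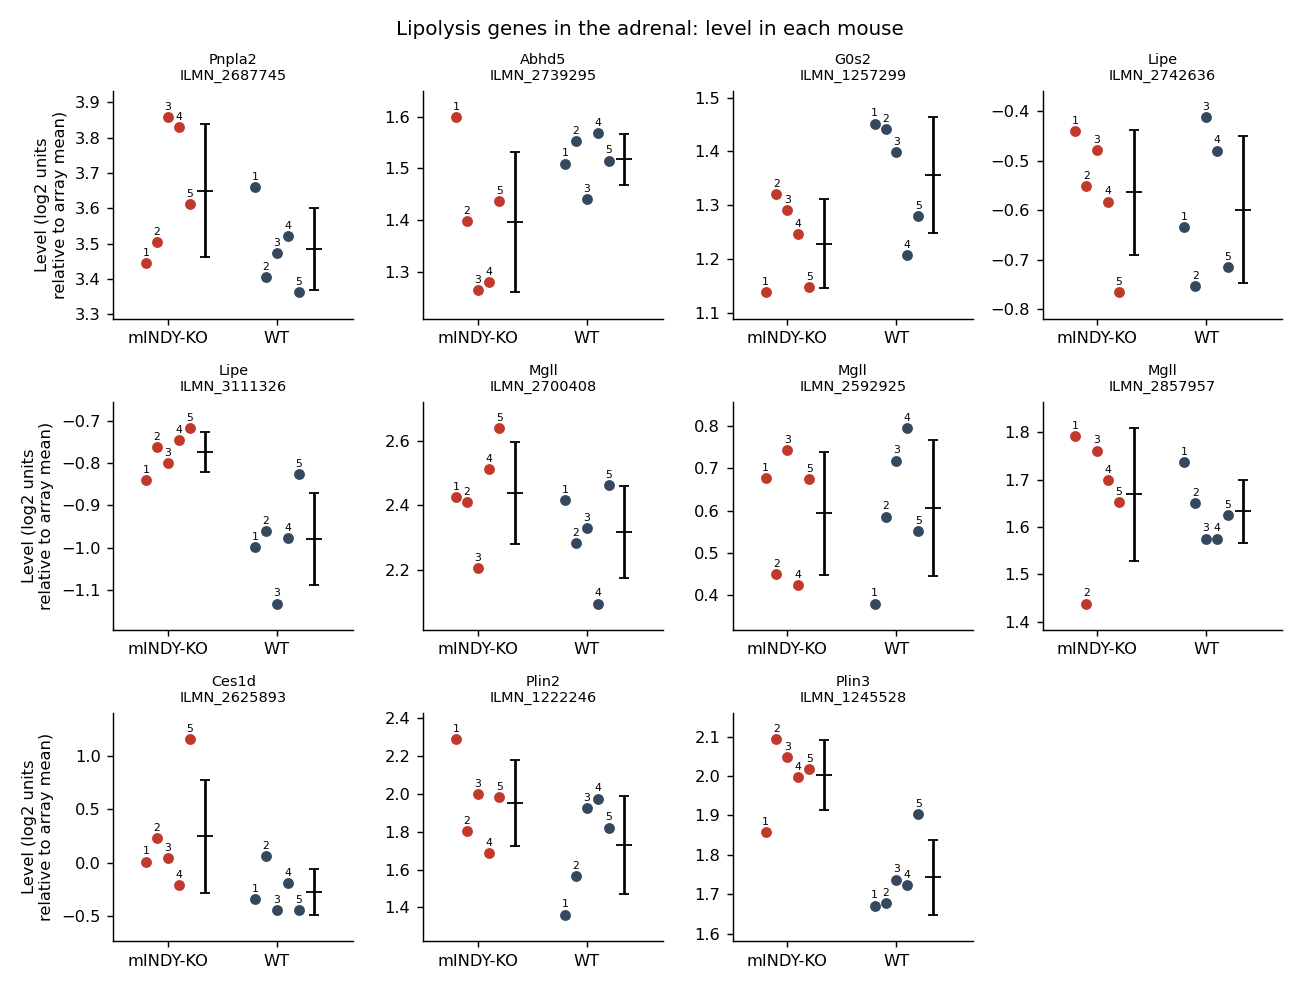
Level of each lipolysis probe in each mouse (y axis, log2 units relative to the array mean, a separate range for each panel), with mINDY-KO mice in red and WT mice in dark blue, numbered by replicate; the bar and whiskers are mean and SD (n = 5 each). Groups overlap in all 11 panels; for Plin3 the overlap comes from mINDY-KO replicate 1 (1.86) and WT replicate 5 (1.90) alone.

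The first lipase of the cascade, Pnpla2, averaged 3.65 ± 0.19 in mINDY-KO mice and 3.48 ± 0.12 in WT mice (SD, n = 5 each). Its level was 3.45, 3.51, 3.86, 3.83 and 3.61 in mINDY-KO replicates 1 to 5, and 3.66, 3.41, 3.47, 3.52 and 3.36 in WT replicates 1 to 5. Replicates 3 and 4 of the mINDY-KO group stood above every WT mouse, and the other 3 lay inside the WT range. The difference was 0.17 (95% interval -0.034 to 0.37, limma adjusted p = 0.556). Those 2 mice were also the ones whose arrays had the lowest median signals, and without them, a choice made once the values were known, the difference was 0.036 (adjusted p = 0.907).

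Abhd5, whose protein (also called CGI-58) activates adipose triglyceride lipase, was lowest in those 2 mice. Its level was 1.60, 1.40, 1.27, 1.28 and 1.44 in mINDY-KO replicates 1 to 5, and 1.51, 1.55, 1.44, 1.57 and 1.52 in WT replicates 1 to 5. Thus 4 of 5 mINDY-KO mice lay below every WT mouse, replicate 5 by a narrow margin, while replicate 1 was the highest of all 10. The means were 1.40 ± 0.14 in mINDY-KO mice and 1.52 ± 0.050 in WT mice (SD, n = 5 each), a difference of -0.12 (95% interval -0.28 to 0.040, limma adjusted p = 0.601). Without mINDY-KO replicates 3 and 4 it was -0.039 (adjusted p = 0.881), and without replicate 1 it was -0.17 (adjusted p = 0.375). Replicate 1 was the only mINDY-KO mouse not below every WT mouse, so leaving it out had to end the overlap of the groups. The mean level of 9 cortex markers was also highest in mINDY-KO replicates 3 and 4 (3.90 and 3.92), against 3.62 to 3.76 in WT mice. Replicates 1, 2 and 5 were at 3.55, 3.52 and 3.85. The mean of 9 medulla markers was 4.04 and 4.13 in replicates 3 and 4, inside the WT range of 3.82 to 4.40. The parts of array brightness and of tissue make-up in the Pnpla2 and Abhd5 values were not tested.

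**Figure D2:**
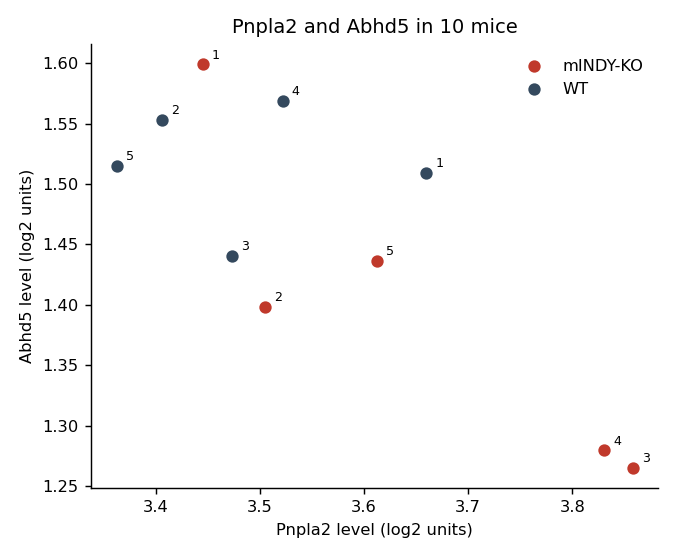
Level of Pnpla2 (x axis) against level of Abhd5 (y axis), both in log2 units relative to the array mean, with mINDY-KO mice in red and WT mice in dark blue, numbered by replicate. The mINDY-KO replicates 3 and 4 lie at the lower right, highest for Pnpla2 (3.86 and 3.83) and lowest for Abhd5 (1.27 and 1.28).

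G0s2 encodes an inhibitor of adipose triglyceride lipase. Its level was 1.14, 1.32, 1.29, 1.25 and 1.15 in mINDY-KO replicates 1 to 5, and 1.45, 1.44, 1.40, 1.21 and 1.28 in WT replicates 1 to 5. All 5 mINDY-KO mice lay below the WT mean and 2 of them below every WT mouse, while WT replicates 4 and 5 fell within the mINDY-KO range. The means were 1.23 ± 0.083 in mINDY-KO mice and 1.36 ± 0.11 in WT mice (SD, n = 5 each), and the difference of -0.13 did not pass the test (95% interval -0.28 to 0.030, limma adjusted p = 0.567).

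Hormone-sensitive lipase was read by 2 probes. The brighter one (ILMN_2742636) was detected in all 10 mice and had almost the same mean in both genotypes, -0.56 ± 0.13 in mINDY-KO mice and -0.60 ± 0.15 in WT mice (SD, n = 5 each). Its levels ran from -0.77 to -0.44 in mINDY-KO mice and from -0.75 to -0.41 in WT mice, so that the groups covered the same range, and the difference was 0.035 (95% interval -0.15 to 0.22, limma adjusted p = 0.923). The second probe (ILMN_3111326), near background, read -0.84, -0.76, -0.80, -0.74 and -0.72 in mINDY-KO replicates 1 to 5 and -1.00, -0.96, -1.13, -0.98 and -0.83 in WT replicates 1 to 5. It was detected in 1 of the 5 WT mice, and its difference of 0.21 (95% interval 0.057 to 0.36, limma adjusted p = 0.310) therefore rests on WT signals that mostly could not be told from background. The probes carry different RefSeq transcripts, NM_010719 and NM_001039507, and the deposited values do not say whether they read different isoforms.

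Monoacylglycerol lipase, which cleaves the last fatty acid, was read by 3 probes that disagreed on the sign. The brightest (ILMN_2700408) was at 2.43, 2.41, 2.20, 2.51 and 2.64 in mINDY-KO replicates 1 to 5 and at 2.42, 2.28, 2.33, 2.10 and 2.46 in WT replicates 1 to 5, with a difference of 0.12 (95% interval -0.075 to 0.32, limma adjusted p = 0.675). That difference was 0.071 without mINDY-KO replicate 5 (adjusted p = 0.830), 0.066 without WT replicate 4 (adjusted p = 0.834) and 0.048 for the mean of all 3 probes (adjusted p = 0.836). The second (ILMN_2857957) ran from 1.44 to 1.79 in mINDY-KO mice and from 1.58 to 1.74 in WT mice, a difference of 0.036 (adjusted p = 0.907). The third (ILMN_2592925) ran from 0.42 to 0.74 in mINDY-KO mice and from 0.38 to 0.79 in WT mice, a difference of -0.012 (adjusted p = 0.978). The groups overlapped for each probe, and the intervals of all 3 include 0.

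Ces1d, a carboxylesterase known in liver and fat as a triacylglycerol hydrolase, had the largest difference of the 8 genes and the widest spread. Its level was 0.0097, 0.23, 0.044, -0.21 and 1.16 in mINDY-KO replicates 1 to 5, and -0.34, 0.063, -0.45, -0.20 and -0.45 in WT replicates 1 to 5. All 5 mINDY-KO mice lay above the WT mean, but only replicates 2 and 5 exceeded every WT mouse, and replicate 5 stood far above the rest. The means were 0.25 ± 0.53 in mINDY-KO mice and -0.27 ± 0.22 in WT mice (SD, n = 5 each), a 1.43-fold difference (log2 0.52, 95% interval 0.094 to 0.95, limma adjusted p = 0.371). Without mINDY-KO replicate 5 the difference was 0.29 (adjusted p = 0.411), and after neqc normalization of all arrays it was 0.92 (adjusted p = 0.352). Probes of the related carboxylesterases Ces1e, Ces1f and Ces1g gave no signal above background in the 10 mice.

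The mean level of the adipocyte markers was also highest in mINDY-KO replicate 5, although the markers did not all go one way there. Of 21 listed genes, 12 were kept, and their mean level ran from 0.42 to 0.72 in mINDY-KO mice and from 0.23 to 0.52 in WT mice, with 0.72 in mINDY-KO replicate 5. Adipoq, the adipocyte hormone adiponectin, was at -0.18, -0.033, -0.037, -0.65 and 1.16 in mINDY-KO replicates 1 to 5 and at -0.63, -0.041, -0.91, -0.92 and -0.76 in WT replicates 1 to 5. Its difference was 0.70 (limma adjusted p = 0.348). Leaving out mINDY-KO replicate 5 gave 0.43 (adjusted p = 0.418). In that mouse 7 of the 12 markers were at their highest of all 10 mice and 3 at their lowest. The 3 were Cox8b (2.13, against 2.40 to 3.39 in the other mice), Cox7a1 (0.46, against 0.80 to 1.55) and Sncg (-0.20, against -0.10 to 0.27), named after their values were seen. Plin1, the perilipin of adipocytes, was also highest in mINDY-KO replicate 5 (0.56), with means of 0.20 ± 0.22 in mINDY-KO mice and 0.16 ± 0.18 in WT mice (SD, n = 5 each). Cidec, another adipocyte droplet protein, was detected in 3 mINDY-KO mice and 0 WT mice, and Ucp1, which defines brown adipocytes, in 0 of the 10. The other markers on the array that were not kept did not share the Cidec count. Fabp4 and Elovl3 were detected in 0 of the 10 mice, and Retn in 0 mINDY-KO mice and 1 WT mouse. Pck1 and Cidea were each detected in 1 mINDY-KO mouse and 0 WT mice. None of the 12 kept markers was called. With the mean of these markers as a covariate, also chosen once the values were known, the Ces1d difference was -0.020 (adjusted p = 0.986). That fit uses 12 markers of which Adipoq and Car3 are among the genes most like Ces1d, so it would shrink the Ces1d difference whatever its source. Fat attached to the gland as a source of the Ces1d values was not tested.

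**Figure D3:**
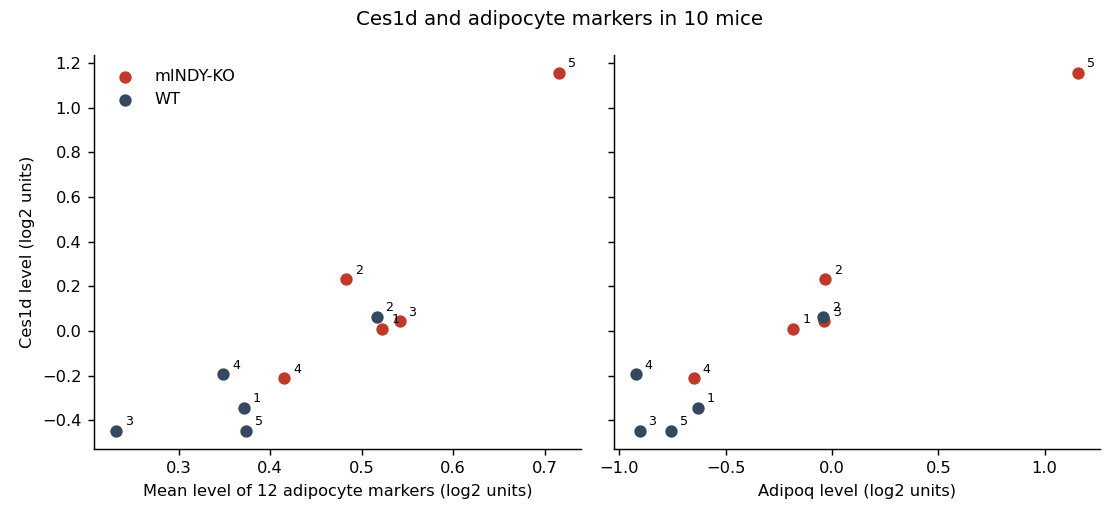
Ces1d level (y axis) against the mean level of 12 adipocyte markers (left) and the level of Adipoq (right), all in log2 units relative to the array mean, with mINDY-KO mice in red and WT mice in dark blue, numbered by replicate. The mINDY-KO replicate 5 is at the upper right of both panels, at 1.16 for Ces1d and 1.16 for Adipoq.

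RNA of Plin2 and Plin3, the droplet coat genes among the 8, was higher on average in mINDY-KO mice. Outside the 8, Plin4 differed by 0.20 (limma adjusted p = 0.769), Plin1 by 0.033 (adjusted p = 0.946) and Plin5 by -0.054 (adjusted p = 0.938). Plin3 (TIP47), a perilipin that moves from the cytosol onto forming droplets, was at 1.86, 2.09, 2.05, 2.00 and 2.02 in mINDY-KO replicates 1 to 5, and at 1.67, 1.68, 1.74, 1.72 and 1.90 in WT replicates 1 to 5. Replicates 2 to 5 of the mINDY-KO group lay above every WT mouse, and the overlap came from mINDY-KO replicate 1 and WT replicate 5. The means were 2.00 ± 0.089 in mINDY-KO mice and 1.74 ± 0.094 in WT mice (SD, n = 5 each), a 1.20-fold difference (log2 0.26, 95% interval 0.11 to 0.42). It ranked 169 of 13341 probes by p-value, and after adjustment did not pass (limma adjusted p = 0.214). The difference was between 0.24 and 0.32 in each of 22 alternative settings, with adjusted p from 0.175 to 0.500.

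Plin2 (adipophilin), the perilipin that coats droplets in most cells outside fat, was at 2.29, 1.80, 2.00, 1.69 and 1.98 in mINDY-KO replicates 1 to 5, and at 1.36, 1.57, 1.92, 1.97 and 1.82 in WT replicates 1 to 5. Replicates 1, 3 and 5 of the mINDY-KO group lay above every WT mouse, 3 and 5 by a narrow margin, and replicates 2 and 4 lay inside the WT range. WT replicates 1 and 2 lay below every mINDY-KO mouse. The means were 1.95 ± 0.23 in mINDY-KO mice and 1.73 ± 0.26 in WT mice (SD, n = 5 each), a difference of 0.22 (95% interval -0.054 to 0.50, limma adjusted p = 0.568). It was 0.14 without mINDY-KO replicate 1 (adjusted p = 0.715) and 0.13 without WT replicate 1 (adjusted p = 0.837). Macrophages, which also carry both perilipins, had 11 markers kept of 16 listed, of which 9 had higher and 2 had lower means in mINDY-KO mice and 0 were called. Their mean level ran from 1.31 to 1.77 in mINDY-KO mice and from 1.11 to 1.61 in WT mice, while C1qa differed by 0.0099 (adjusted p = 0.985), Cd68 was not analysed here, and the part of these cells in the perilipin values was not tested.

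**Figure D4:**
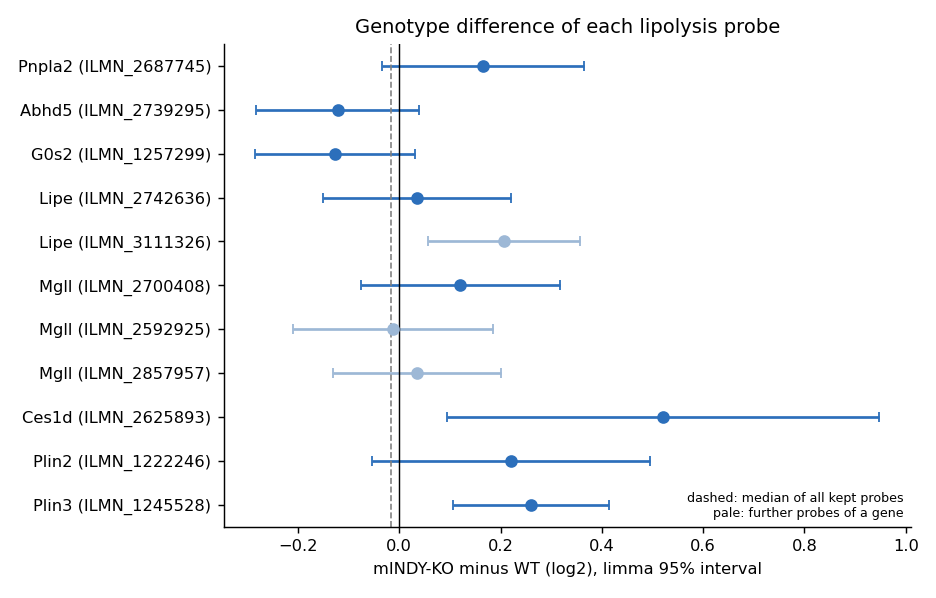
Difference of each of the 11 lipolysis probes between genotypes (x axis, mINDY-KO minus WT, log2) with limma's 95% interval before adjustment for multiple testing; pale symbols are the further probes of Lipe and Mgll, and the dashed line is the median of all kept probes (-0.017). The intervals of Plin3, Ces1d and the second Lipe probe lie above 0, and none of the 11 passed after adjustment.

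Around these 8 genes, 6 lists of related genes were counted, and none of their genes passed the adjusted test. The list of other neutral lipases, which also holds the acid lipase Lipa and hydrolases of phospholipids, had 12 genes kept of 25 listed. Of these, 6 had higher and 6 had lower means in mINDY-KO mice, with a median difference of -0.0076. Ldah, a hydrolase of the droplet surface, was 1.79 ± 0.095 in mINDY-KO mice and 2.02 ± 0.13 in WT mice (SD, n = 5 each), a difference of -0.23 (limma adjusted p = 0.310). Ddhd1, a phospholipase, showed no overlap, with every mINDY-KO mouse under the lowest WT mouse (difference -0.19, adjusted p = 0.358), and Abhd12, a lysophospholipid lipase, differed by -0.20 (adjusted p = 0.440). Further droplet proteins, 12 kept of 21 listed, split into 7 higher and 5 lower with a median of 0.026, led by Aup1 at -0.13 (adjusted p = 0.543), Fitm2 at 0.16 (adjusted p = 0.555) and Hsd17b11 at 0.10 (adjusted p = 0.691).

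The genes that carry the hormone signal to the lipases had lower means more often than higher, 11 of 15 kept genes (33 listed), with a median difference of -0.073. Over all genes, 5247 of 9302 also had the lower mean in mINDY-KO mice, and 4055 had the higher. Prkar1b, a regulatory subunit of protein kinase A, was at 0.94, 0.82, 0.90, 0.82 and 0.71 in mINDY-KO replicates 1 to 5 and at 0.96, 1.13, 1.06, 1.07 and 1.19 in WT replicates 1 to 5. Every mINDY-KO mouse lay below every WT mouse, replicate 1 narrowly, and the difference was -0.25 (limma adjusted p = 0.234). Adcy4, an adenylyl cyclase, also showed no overlap, at 0.13 to 0.55 in mINDY-KO mice and 0.55 to 0.64 in WT mice, a difference of -0.25 (adjusted p = 0.309). Akap1, which anchors the kinase at mitochondria, differed by -0.25 (adjusted p = 0.378). Not all parts of this signal went that way. The 4 genes with higher means included the ACTH receptor Mc2r at 0.22 (adjusted p = 0.421) and Prkar1a at 0.11 (adjusted p = 0.644). The catalytic subunits Prkaca and Prkacb were at -0.024 (adjusted p = 0.938) and -0.058 (adjusted p = 0.858). These genes were named after their values were seen.

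Synthesis of triacylglycerol and cholesteryl esters, the opposite arm, had 14 genes kept of 19 listed, 5 higher and 9 lower, with a median of -0.017. Dgat2, which adds the last fatty acid of triacylglycerol, was at 1.34, 0.73, 1.13, 0.89 and 1.41 in mINDY-KO replicates 1 to 5 and at 0.75, 0.45, 0.61, 0.63 and 0.58 in WT replicates 1 to 5. In this gene 4 of 5 mINDY-KO mice were above every WT mouse, and the difference was 0.49 (limma adjusted p = 0.158). Agpat2, which acylates lysophosphatidic acid, differed by 0.44 (adjusted p = 0.279) and Lpin2, a phosphatidic acid phosphatase, by -0.27 (adjusted p = 0.380). With the adipocyte marker mean as covariate, chosen once the values were known, Agpat2 was at 0.17 (adjusted p = 0.777). Over the 22 alternative settings, that fit among them, Dgat2 was at 0.36 to 0.67 (adjusted p 0.0677 to 0.480). Attached fat as a source of these values was not tested.

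Fatty acid handling had 10 genes kept of 23 listed, 6 higher and 4 lower, with a median of 0.071. Fabp3, a fatty acid binding protein best known from heart muscle, was at -0.15 ± 0.23 in mINDY-KO mice and 0.39 ± 0.25 in WT mice (SD, n = 5 each), a difference of -0.54 (limma adjusted p = 0.158). Acsl4, an acyl-CoA synthetase, differed by 0.28 (adjusted p = 0.386) and the sterol carrier Scp2 by 0.24 (adjusted p = 0.408). Transcription factors of lipid storage and breakdown had 10 kept of 17 listed, 4 higher and 6 lower, with a median of -0.021, led by Cebpb at 0.25 (adjusted p = 0.408), Ppargc1b at -0.14 (adjusted p = 0.542) and Srebf2 at -0.15 (adjusted p = 0.568).

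**Figure D5:**
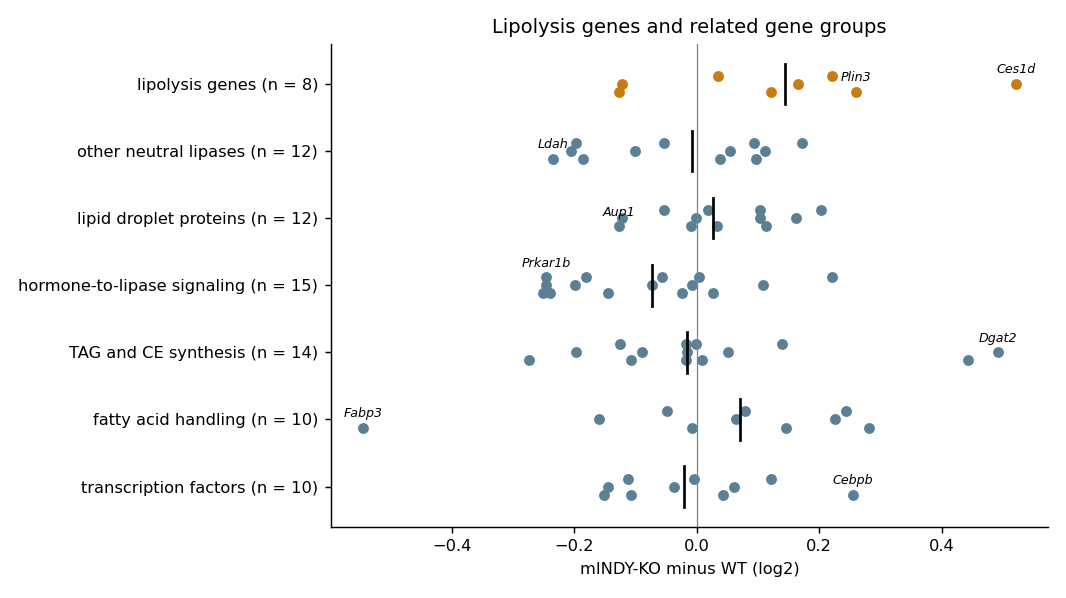
Difference of each gene (x axis, mINDY-KO minus WT, log2) in the 8 lipolysis genes (orange) and the 6 related lists (blue; TAG, triacylglycerol; CE, cholesteryl ester), with the number of genes kept; the black line is the median of each list. The median is 0.14 for the 8 lipolysis genes and lies between -0.073 and 0.071 for the related lists.

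The genes whose levels followed each lipolysis gene most closely over the 10 mice were ranked by Pearson's r, highest first. The ranking used the brightest kept probe of each of 9302 genes and describes these mice with no test. Genes that moved the opposite way have negative r and could not appear. Ces1d was most like Cdo1 (r = 0.97), Car3 (r = 0.97) and Adipoq (r = 0.96), and these values were 0.87, 0.87 and 0.89 without mINDY-KO replicate 5. Pnpla2 was most like Psmb4 (0.95), Atp6v1e1 (0.94) and Rnf181 (0.93), and Abhd5 was most like Zfp281 (0.94), Slc16a9 (0.94) and Cdk14 (0.92). For G0s2 the nearest were Abcb4 (0.96), 1700030K09Rik (0.95) and Lims2 (0.92), for Plin2 Ppcs (0.95), Drg1 (0.92) and Ly6e (0.90), and for Plin3 Mrps18c (0.94), Pdzrn3 (0.93) and Rrbp1 (0.92). For the brighter Lipe probe they were N4bp3 (0.91), Cdkn2d (0.89) and Rhoc (0.89), and for the brightest Mgll probe Arid2 (0.97), Pabpc1 (0.91) and Ginm1 (0.88). None of the 8 lipolysis genes was among the 3 nearest of another, and with 9302 genes over 10 mice values of this size occur for many genes.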

How the data were processed

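Adrenal RNA of 5 mINDY-KO and 5 WT mice was read on 11 Illumina bead arrays, and the arrays of WT replicate 1, a technical repeat, were averaged. The authors deposited a signal intensity for each probe, written out by GenomeStudio (the submitters' processing notes give version 2011.1) without normalization between arrays, with a detection p-value for each. They also deposited a Z score for each probe, which equals the log10 signal minus the mean of its array, divided by its SD (largest difference 0.0102), and has a median of -0.53 or -0.52 on each array.

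The same Z scores were computed from the signals and multiplied by 1.57, the SD of log2 signals averaged over arrays, which puts differences on a log2 scale. Kept probes had a detection p under 0.05 in at least 5 of 10 mice. Genotypes were compared by limma 3.58.1 (R 4.3.3) in a two-sided moderated test from lmFit and eBayes, adjusted by Benjamini-Hochberg over 13341 probes, at a threshold of 0.05. Gene lists used the brightest kept probe of each gene. Symbols came from the platform annotation (23978 probes with 1 symbol, 1719 unnamed here). The fit was tested on simulated data. Figures were drawn with matplotlib.

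The genes, the lists and the alternatives were chosen with earlier results of these data known. Named are all probes of the 8 genes, up to 3 genes of smallest p in each related list, defining cell type markers, the 3 genes most like each of the 8, and Slc13a5. As alternatives served the deposited Z scores, quantile normalization, neqc, a detection limit of 0.01 and none, either array of WT replicate 1, the replicate number as a block, array weights, an intensity trend, and leaving out each mouse. Slides are not named in the sources used here and were not tested as a batch, and the number of arrays limits the precision.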

Additional observations from a re-analysis of the deposited data

Results flagged for a closer look

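The Plin3 level of WT replicate 5 (1.90) stood apart from the other WT mice (1.67 to 1.74), with a gap of 0.716 of the range of the group, above Dixon's critical value of 0.71. It was 1 of 22 groups checked, of which chance flags about 1 in 20. Without that mouse the Plin3 difference was 0.30 (limma adjusted p = 0.220). The overlap of the groups came from that mouse and mINDY-KO replicate 1 alone. Leaving the mouse out therefore had to end the overlap, and adds nothing to the Plin3 result.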

How the results depend on the processing

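In each of the 22 alternatives 0 lipolysis probes and 0 genes of the related lists were called, and the median difference over the 8 genes stayed positive (0.11 to 0.17; 0.11 to 0.165 when 1 mouse was left out). Over all kept probes, the 2 calls became 0 with neqc normalization, with no filter, without mINDY-KO replicates 3 and 4 together and with the adipocyte covariate, 1 with the deposited Z scores, 6 with an intensity trend, and 0 to 14 when 1 mouse was left out (14 without mINDY-KO replicate 2). Lipolysis probes without overlap between genotypes numbered 0 to 3 when 1 mouse was left out, with 3 without mINDY-KO replicate 1 and 2 without WT replicate 5. Leaving out a mouse can only keep or raise such a count. The share over all kept probes was not counted in these settings, so the 3 cannot be judged against it. The signs of small differences turned: Mgll probe ILMN_2592925 was at 0.025 with neqc, at 0.019 with quantile normalization and at -0.069 to 0.035 when 1 mouse was left out. Lipe probe ILMN_2742636 was at -0.0033 to 0.086 when 1 mouse was left out, the lowest without WT replicate 2. Mgll probe ILMN_2857957 was at -0.0052 without mINDY-KO replicates 3 and 4. Larger differences turned with the adipocyte covariate, Ces1d from 0.52 to -0.020 and Adipoq from 0.70 to -0.073. Adipoq is itself part of the marker mean used there, so its value in that fit says nothing about genotype. The cause was not tested. Lipe probe ILMN_3111326 was at 0.65 (adjusted p = 0.230) with neqc normalization. Same-numbered mice correlated at -0.304 to -0.108 in their deviations, so the numbers do not pair the mice, and with the replicate number as a block 1 probe was called.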
